A study of Mus musculus with 30 samples.

Results

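Genes of B cells and plasma cells were followed in C57BL/6 mice aged 8 weeks, in lung and in spleen. The genotypes were wild type and 2 lines, which the labels call lincRNA-Cox2 mutant and lincRNA-Cox2 knockout. This long noncoding RNA is encoded beside Ptgs2, the gene of cyclooxygenase 2. Mice received lipopolysaccharide (LPS, a component of the outer membrane of Gram-negative bacteria) into the peritoneum at 20 mg/kg and tissues were collected 6 h later, and the control groups are labelled PBS. Each genotype and tissue had 3 LPS and 2 PBS libraries, 30 in all. The labels do not say that these came from separate animals, and how either line was made is not given in the sources used here. The set was a list of 38 symbols chosen by name, of which 37 were found among 19841 distinct symbols in both tissues. Ighm was the symbol not found. The symbol abParts, a class of entries for parts of antibody genes, occurred 4 times and each entry was kept, which gave 40 entries per tissue. Every level given is a group mean computed by the authors from normalized counts, so no spread between libraries can be given. Folds and adjusted p-values come from the authors' deposited table, and a gene is called at an adjusted p under 0.05.

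B cells recognise antigen through a membrane antibody that signals through the Cd79a and Cd79b chains and the kinases Blk and Btk, with the adaptors Blnk and Bank1. Pax5 and Ebf1 hold the identity of the lineage, whereas Prdm1 (Blimp-1) drives the change into a plasma cell, which sheds much of the B cell surface programme and turns to the secretion of antibody. LPS is a classical activator of mouse B cells, which carry Toll-like receptors. The spleen holds marginal zone and follicular B cells, while a resting lung holds few B cells.

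The targeted RNA followed the labels in lung: lincRNA-Cox2 had an authors' mean of 30.2 with LPS and 34.8 with PBS in wild type and of 0 in both lines. In spleen it was low, 3.53 with LPS and 2.13 with PBS in wild type and at most 0.322 in the lines. Summed over genes, the authors' group means came to 7.44 to 10.5 M normalized counts in lung and 3.56 to 5.02 M in spleen. The sex-linked transcripts differed between groups that the labels do not divide by sex. Xist, the RNA that coats the inactive X chromosome, had authors' means in LPS lung of 14.5 (wild type), 4510 (mutant) and 23.2 (knockout), and Ddx3y on the Y chromosome 1150, 4.73 and 1130. LPS spleens showed the same split (Xist 31.3, 4670 and 33.7), and all PBS groups had both transcripts. The part of sex in the results below was not tested.

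In wild type with PBS the authors' means were higher in spleen than in lung, except for Sdc1, Prdm1, Cd38, Vpreb3 and Zbtb32. The lung and spleen tables were normalized separately. Per kilobase of annotated exon, Cd79a led in wild type PBS spleen with an authors' mean of 1709, followed by Cd79b with 1342, Ly6d with 1231 and the antibody joining chain Igj with 1148. The next member, the tetraspanin Cd37, stood at 335 per kilobase. In wild type PBS lung the highest values per kilobase were those of Sdc1 (431) and Cd38 (192), which are also known in cells outside the B lineage, ahead of Cd79b (164), Cd79a (161) and Vpreb3 (159). Of the 40 entries, 39 in lung and all 40 in spleen reached an authors' mean of 10 in at least 1 group. The exception was Tnfrsf17 (BCMA), a receptor of plasma cells, whose authors' mean in lung was at most 2.49 and was listed at 0 in wild type with LPS.

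Among lungs with LPS, immunoglobulin transcripts had higher levels in the knockout than in wild type. All 4 abParts entries, the heavy chain entry Ighg and Igj, which links antibody units into the secreted pentamer or dimer, were called higher in the knockout than in wild type. The authors' means of the entry with the highest level, abParts kgCluster6579, in LPS lung were 1225 (wild type), 1719 (mutant) and 2791 (knockout). Its knockout mean was thus 2.28-fold the wild type mean. The log2 fold was 1.15 (adjusted p 0.00914) by the authors' deposited table. For abParts kgCluster23659 the LPS means of wild type, mutant and knockout were 765, 1550 and 2439. The knockout fold was 1.64 (log2, adjusted p 7.47e-09) by the authors' deposited table, the smallest p of any member in any comparison.

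The immunoglobulin entries with lower means followed the same order of genotypes. abParts kgCluster10725 had authors' LPS means of 182, 235 and 385 for wild type, mutant and knockout lung, and a knockout fold of 1.06 (log2, adjusted p 0.00236) by the authors' deposited table. abParts kgCluster23662 had means of 81.4, 144 and 232 and a knockout fold of 1.48 (adjusted p 6.93e-06) by the authors' deposited table. Ighg went from 14.1 through 34.3 to 54.5, a 3.87-fold difference of means between knockout and wild type, and a log2 fold of 1.83 at adjusted p 0.00244 by the authors' deposited table. All 6 entries were thus lowest in wild type and highest in knockout lung. In wild type all 6 LPS means lay below the PBS means, and Igj in the knockout went from 268 with PBS to 227 with LPS. With PBS the knockout means of all 6 were above those of wild type as well, none called. Igj had means of 95.5, 188 and 227, with a knockout fold of 1.21 (log2) at adjusted p 0.0178 by the authors' deposited table. Reads of near-identical antibody segments cannot be assigned with certainty, and the abParts and Ighg entries have no position in the sources used here. In whole tissue, more cells of a type and more RNA per cell cannot be told apart.

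**Figure D1:**
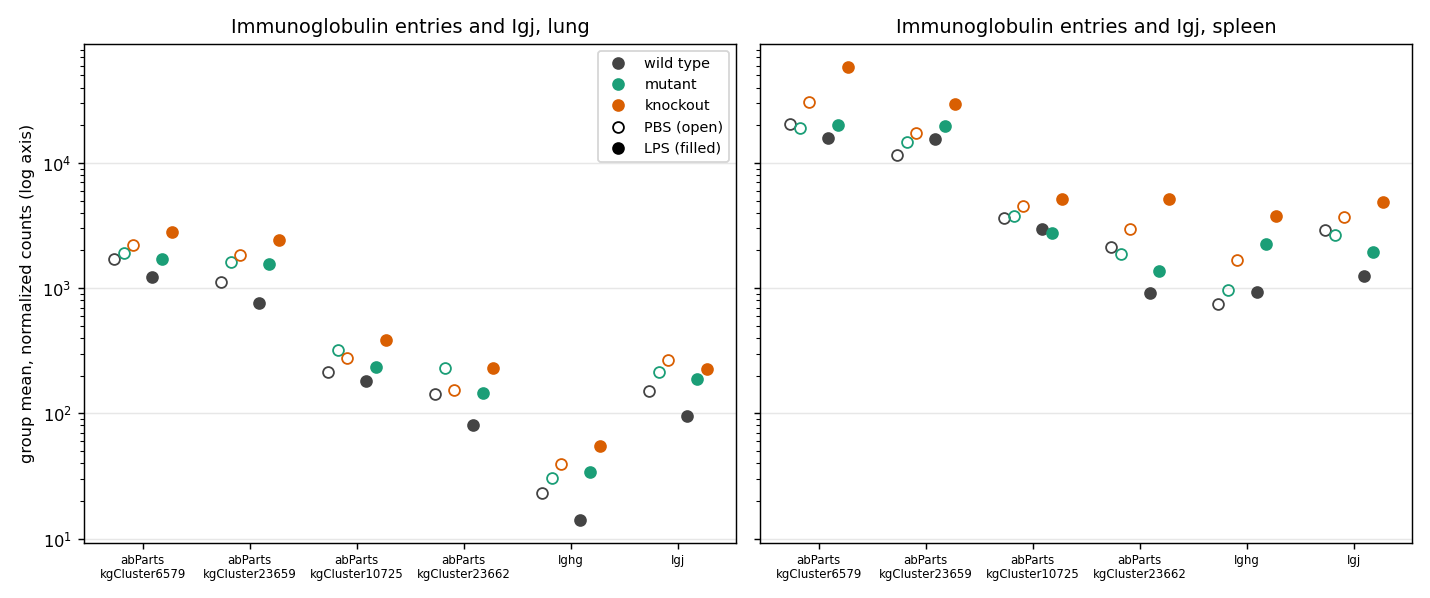
Authors' group means of the 4 abParts entries, Ighg and Igj (normalized counts, log axis) in lung (left) and spleen (right), by genotype (colour) and treatment (open points PBS, filled points LPS). With LPS the knockout point is the highest of the 3 genotypes for every entry in both tissues, for example 2791 against 1225 in wild type for abParts kgCluster6579 in lung. No error is drawn because the deposited values are group means.

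Outside the antibody genes 3 members were called higher in knockout lung with LPS. Pax5, the factor that commits cells to the B lineage, had authors' means in LPS lung of 34.0 (wild type), 55.4 (mutant) and 111 (knockout). With PBS these were 44.3, 57.4 and 64.1, so the genotypes lay closer together. Pax5 overlaps exons of other annotated genes, whose reads may be counted with it. In the authors' deposited table Pax5 rose by 1.62 (log2) with an adjusted p of 0.00517 in the knockout. Bank1, a scaffold of B cell receptor signalling, had LPS means of 30.2, 63.7 and 86.2 and rose by 1.41 (log2, adjusted p 0.0421) by the authors' deposited table. Zbtb32, a repressor that restrains plasma cell responses and is also known in T and NK cells, had LPS means of 22.0, 65.2 and 61.5 and rose by 1.41 (log2, adjusted p 0.00781) by the authors' deposited table. The Zbtb32 means of both lines were similar with LPS, while the PBS means of the 3 genotypes were 19.4, 19.5 and 19.2.

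Together 9 of the 39 tested entries (23.1%) were called in knockout against wild type lung with LPS, all higher. Of all 15656 genes tested in that comparison, 69 or 0.441% were called, and 47 or 0.3% were called higher. The median log2 fold of the 39 entries was 0.55 against -0.01 over all genes tested, and 33 of 39 lay above 0. The 4 abParts entries may share reads, and without them 5 of 35 entries (14.3%) were called.

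Promoters are shown for the genes called in knockout lung with LPS that have a position here. That call was the reason for the choice and is no sign that the genes are regulated together. Each line gives the bases before the RefSeq start of the gene, 5′ to 3′ on the gene's strand, in the RefSeq annotation of GRCm38.p6. Capitals mark a match to one of 5 motifs searched on both strands of the 250 bases upstream. These were the octamer ATGCAAAT bound by Pou2f2 with its partner Pou2af1, and the EBF palindrome CCCNNGGG. The third was the Ets site GAGGAAGT of the type bound by PU.1 and Spib. The others were an NF-kB site (GGG, any 2 bases, TTTCC) and the interferon response repeat (GAAA, any 2 bases, GAAA). Pax5 is at chr4:44524757-44710487, Bank1 at chr3:136053363-136326066, Igj (listed as Jchain) at chr5:88519809-88527891 and Zbtb32 at chr7:30589681-30598909, all on the minus strand in GENCODE M21.
Pax5, chr4:44710695-44710944, minus strand: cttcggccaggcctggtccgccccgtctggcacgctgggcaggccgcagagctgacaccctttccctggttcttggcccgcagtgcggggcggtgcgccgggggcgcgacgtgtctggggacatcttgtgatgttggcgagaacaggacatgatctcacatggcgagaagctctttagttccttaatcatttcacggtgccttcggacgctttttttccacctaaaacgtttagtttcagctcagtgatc
Bank1, chr3:136326067-136326316, minus strand: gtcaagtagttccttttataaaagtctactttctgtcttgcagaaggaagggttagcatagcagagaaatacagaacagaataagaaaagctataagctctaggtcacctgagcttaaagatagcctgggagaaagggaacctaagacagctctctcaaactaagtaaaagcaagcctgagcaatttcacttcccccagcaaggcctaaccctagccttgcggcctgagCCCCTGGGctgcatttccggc
Igj, chr5:88527898-88528147, minus strand: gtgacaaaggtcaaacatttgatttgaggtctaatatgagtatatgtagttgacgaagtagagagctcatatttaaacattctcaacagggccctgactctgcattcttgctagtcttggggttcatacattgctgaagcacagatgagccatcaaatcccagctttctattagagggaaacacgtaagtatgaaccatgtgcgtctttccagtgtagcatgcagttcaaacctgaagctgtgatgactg
Zbtb32, chr7:30598910-30599159, minus strand: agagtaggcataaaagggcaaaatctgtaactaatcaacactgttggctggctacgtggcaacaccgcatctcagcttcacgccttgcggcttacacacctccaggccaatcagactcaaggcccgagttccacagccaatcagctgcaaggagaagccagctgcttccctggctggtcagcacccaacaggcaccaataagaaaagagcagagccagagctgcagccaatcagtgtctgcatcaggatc
The Zbtb32 window is 1 of 2 that RefSeq gives. Of these 4 promoters, that of Bank1 held the EBF letters and the other 3 held none of the 5 motifs.

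The octamer, a classical element of antibody gene promoters, lay upstream of a RefSeq start of Blnk and of Vpreb3. Both stretches lie inside the gene as annotated in GENCODE M21 (Blnk chr19:40928927-40994535, Vpreb3 chr10:75943057-75949657), where other transcripts start further upstream. They are shown here as 28-base stretches on the gene's strand with the octamer, read on the opposite strand, in capitals.
Blnk, chr19:40994334-40994361, minus strand: actggaagggATTTGCATgcccaataag
Vpreb3, chr10:75948245-75948272, plus strand: cagtgggctgATTTGCATgctctattgt
Of 30 member genes with a RefSeq window, 2 (6.67%) held the octamer, against 1.81% of 27025 genes. The Ets letters lay before 4 (13.3%, against 2.79% of all genes), namely Cd37, Cd72, Eaf2 and Fcrl1. The EBF letters lay before 5 (16.7%, against 13.4%), the interferon repeat before 3 (10%, against 3.46%) and the NF-kB letters before none (against 1.65%). CCCNNGGG reads the same on both strands and is short, so it occurs often. A match describes letters in the window and is neither a site nor a cause.

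The members not called in knockout lung with LPS mostly lay above 0 as well. In the antigen receptor group, which was otherwise uncalled apart from Bank1, the authors' LPS means of Cd79a in wild type, mutant and knockout were 77.3, 121 and 163. Its log2 fold was 1.01 (adjusted p 0.286) by the authors' deposited table. Cd79b had LPS means of 130, 177 and 205 and a knockout fold of 0.62 (adjusted p 0.547) by the authors' deposited table. Both signalling chains had the same genotype order as the antibody entries, short of the threshold. Btk was the 1 member of this group just below 0, with a log2 fold of -0.01 in the authors' deposited table.

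Among 13 surface proteins and coreceptors none was called, and 11 lay above 0 in knockout lung. Cr2, the complement receptor CD21 of marginal zone and follicular B cells and follicular dendritic cells, had the largest fold of the group, 1.58 (adjusted p 0.136) by the authors' deposited table, from LPS means of 6.68 (wild type), 12.7 (mutant) and 23.2 (knockout). Ms4a1 (CD20) had a fold of 1.15 with an adjusted p of 0.114, and Cd22, an inhibitory lectin, 1.22 (adjusted p 0.122), by the authors' deposited table. Ly6d, a surface marker acquired on entry to the B lineage, went from 80.7 in wild type through 112 to 208 in the knockout, with a fold of 1.26 at adjusted p 0.207 by the authors' deposited table. Other members of the group lay nearer wild type: Cd38, an ectoenzyme, had LPS means of 1070, 1090 and 902, Cd37 172, 218 and 215, and Cd180 51.4, 55.8 and 52.5. Vpreb3 had 58.9, 60.9 and 54, so that for Vpreb3 and Cd38 the knockout mean was the lowest.

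Receptors of the survival factors BAFF and APRIL, and the other transcription factors, lay closer to wild type. Tnfrsf13c, the BAFF receptor, had LPS means of 84.4, 96.8 and 106 for wild type, mutant and knockout lung, and Tnfrsf13b (TACI) 12.3, 10.8 and 14.0. All 7 B cell transcription factors lay above 0 in the knockout, and their median in the authors' deposited table was 0.45 (log2). Pou2f2 (Oct-2) had LPS means of 264, 247 and 333, and Bach2, a repressor that holds back plasma cell differentiation, 108, 133 and 160. The plasma cell marker Sdc1 had 1880, 2060 and 1780, and Prdm1 265, 334 and 345, neither called. The members not yet named in lung had LPS means of 97.2, 131 and 134 (Ebf1), 57.1, 68.8 and 101 (Bcl11a), 144, 156 and 193 (Spib) and 102, 157 and 144 (Pou2af1) in wild type, mutant and knockout. Fcer2a had 97.2, 184 and 208, Siglecg 39.6, 48.4 and 59.6, Fcrl1 25.3, 36 and 43.4, Fcrla 36.1, 44.7 and 43.0, Blnk 50.7, 73.2 and 83.2 and Blk 26.9, 32.8 and 38.2. Wild type was lowest for all 10. Mzb1, an endoplasmic reticulum cochaperone of antibody assembly, was level at 13.9, 14.1 and 13.9. Eaf2, which is also known in other cell types, had 12.4, 16.4 and 11.9. Neither shared the order of the antibody entries.

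**Figure D2:**
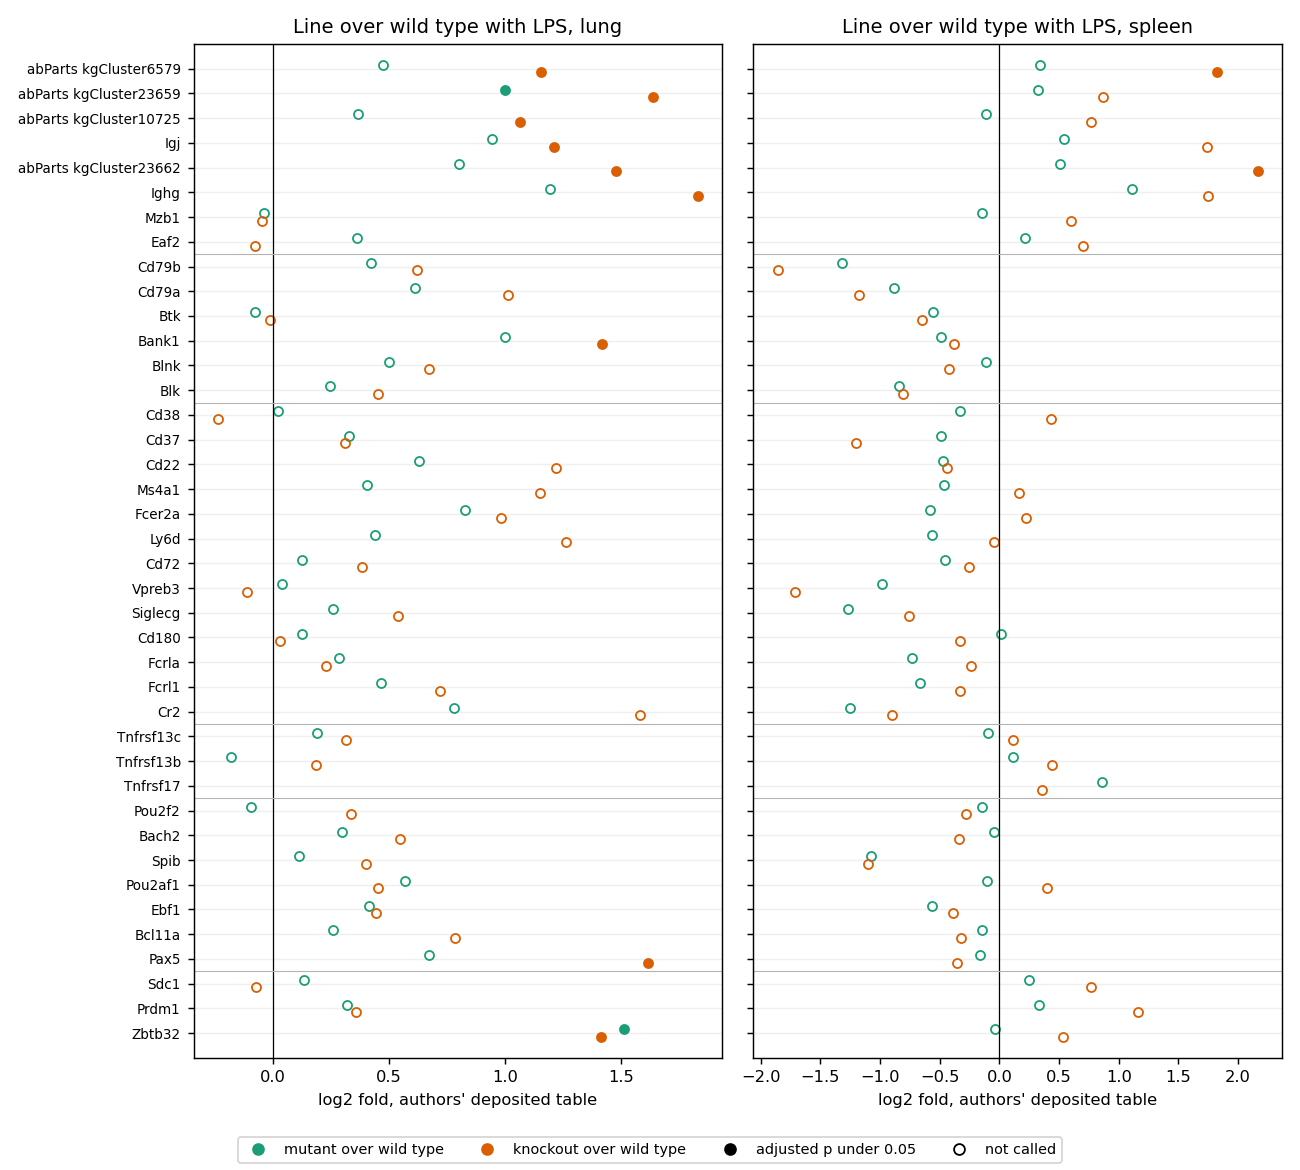
Log2 folds of the members in the authors' deposited table with LPS, mutant over wild type and knockout over wild type, in lung (left) and spleen (right); entries are grouped by role and filled points are called. In lung the folds mostly lie above 0 with 9 filled knockout points, and in spleen the upper antibody block lies above 0 for the knockout while the antigen receptor block lies below.

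In mutant lungs with LPS 2 of 39 entries were called against wild type, both higher, where 0.0715% of all 16774 genes tested were called and 0.0417% called higher. These were abParts kgCluster23659, with log2 fold 1.00 and adjusted p 0.0237, and Zbtb32, with 1.51 at adjusted p 0.00575, by the authors' deposited table. The median log2 fold of the entries was 0.37 and 35 of 39 lay above 0. Knockout and mutant were not separated by the test in lung: by the authors' DESeq2 comparison 0 of 39 entries were called against 0.243% of all genes, and the smallest adjusted p among members was 0.208, for abParts kgCluster10725, in the authors' deposited table. The means of the 3 LPS groups stood in the order wild type, mutant, knockout for 26 of 39 entries, and wild type was lowest for 31. Such counts by order of genotype, here and below, have no share over all genes beside them. Entries measured in the same libraries are not independent, so the counts are no test of genotype. The 2 comparisons against wild type share its 3 libraries.

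Markers of other cells moved with the knockout lung in part. Of the 12 T cell markers, 11 were tested, all 11 lay above 0 in the knockout and none was called, with a median log2 fold of 0.32, and their summed LPS level was 371 (wild type), 560 (mutant) and 515 (knockout). The mutant, not the knockout, thus had the highest T cell sum. Of 5 lymphoid stroma markers, Glycam1 was at 0 in all 3 LPS groups, and the sum was 1983, 2217 and 2825. It rested mostly on Ccl19 (618, 740 and 959), Cxcl13 (497, 596 and 1030) and Enpp2 (867, 875 and 829). Ccl19 and Cxcl13 were highest in the knockout and Enpp2 was lowest there, none of them called. Hepatocyte markers, which lung should lack, summed to 414, 795 and 3919 over 6 genes, with authors' means of Alb of 242, 462 and 2460. With PBS the hepatocyte sum was 510, 17.3 and 175, highest in wild type. Rag1, which recombines antigen receptor genes in precursors, had 12.4, 8.80 and 24.4 with LPS. The part of these in the immunoglobulin result was not tested.

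In spleens with LPS the same antibody entries stood highest in the knockout, but the receptor genes did not. abParts kgCluster6579 had authors' means of 15700 (wild type), 19993 (mutant) and 58821 (knockout), and rose by 1.82 (log2), adjusted p 3.39e-05, over wild type in the authors' deposited table. It was also the member called between the 2 lines, with a knockout over mutant fold of 1.48 at adjusted p 0.00411 by the authors' deposited table. abParts kgCluster23662 had means of 908, 1366 and 5112, a 5.63-fold difference between knockout and wild type, and rose by 2.17 (log2, adjusted p 0.0272) by the authors' deposited table. In all, 2 of 40 entries (5%) were called in knockout against wild type, where 0.0241% of all 16572 genes were and 0.0181% were higher. Against the mutant 1 of 39 was called, where 0.177% of all genes were and 0.0421% were higher.

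The other antibody entries in spleen missed the threshold. Igj had LPS means of 1260, 1930 and 4920 for wild type, mutant and knockout, and a knockout fold of 1.74 (adjusted p 0.114) by the authors' deposited table. Ighg had 939, 2270 and 3760, and a fold of 1.75 (adjusted p 0.198) by the authors' deposited table. The knockout mean was the highest for both, as it was for abParts kgCluster23659 (15600, 19800 and 29500) and abParts kgCluster10725 (2980, 2740 and 5190). For abParts kgCluster10725 the mutant mean lay below that of wild type. Summed, the 6 antibody entries made up 0.797% of all normalized counts in wild type LPS spleen, 0.958% in the mutant and 2.19% in the knockout. With PBS these shares were 1.15%, 1.16% and 1.71%.

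Plasma cell genes lay above 0 in knockout spleen without being called. Prdm1 had LPS means of 150 (wild type), 189 (mutant) and 355 (knockout), with a fold of 1.16 at adjusted p 0.337 by the authors' deposited table. Zbtb32 had 138, 137 and 211, so its mutant and wild type means were alike, unlike in lung. Mzb1 had 93.9, 79.0 and 153, and Sdc1 47.9, 60.9 and 84.9.

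Antigen receptor genes lay below wild type in LPS spleens of both lines, none called. Cd79b had LPS means of 1200 (wild type), 378 (mutant) and 232 (knockout), 5.17-fold lower in the knockout than in wild type. Its log2 fold was -1.86 (adjusted p 0.304) by the authors' deposited table. Cd79a had 1830, 880 and 685 and a knockout fold of -1.18 (adjusted p 0.588) by the authors' deposited table. Wild type was highest for both chains, the reverse of the order in lung. All 6 genes of this group lay below 0 in both lines, as did 12 of 13 surface proteins in the mutant and 10 of 13 in the knockout. Cd37 had means of 1130, 760 and 425, and Vpreb3, a surrogate light chain relative kept by immature B cells, 64.5, 24.7 and 12.5. Spib, an Ets factor of B cells and plasmacytoid dendritic cells, had 678, 295 and 287, whereas Pou2af1, the octamer coactivator, had 762, 698 and 1030. The 7 B cell transcription factors all lay below 0 in the mutant and 6 of 7 in the knockout.

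T cell markers were lower in the same spleens: 11 of 12 lay below 0 in each line with LPS, none called, and their sum was 2109 (wild type), 1394 (mutant) and 1198 (knockout). The hepatocyte sum was 230, 2718 and 3914 in those groups. With PBS it was 1396, 22.2 and 144, highest in wild type. The neutrophil marker sum with LPS was 5728, 19198 and 3813, highest in the mutant. The part of any of these in the values of the members was not tested. By the authors' DESeq2 comparison 0 of 40 entries were called in mutant against wild type spleen with LPS, where 0.00545% of all genes were called.

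Signs of the genotype differences were set side by side for both tissues. Knockout over wild type with LPS was above 0 in lung and below 0 in spleen for 20 of 40 entries, above 0 in both for 14, below 0 in lung and above 0 in spleen for 4, and below 0 in both for 2. All 6 antibody entries were among those above 0 in both tissues. For mutant over wild type, 26 of 40 entries were above 0 in lung and below 0 in spleen. The difference between tissues was not tested, since the authors compared genotypes within each tissue.

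With PBS no member was called in any of the 6 comparisons. The background was 0.00524% for mutant against wild type, 0.0421% for knockout against wild type and 0.0523% for knockout against mutant in lung. In spleen it was 0% for both comparisons with the mutant and 0.16% for knockout against wild type, in which only 3124 genes and 27 of 40 entries had an adjusted p. Wild type had the lowest PBS mean for 29 of 39 entries in lung and 29 of 40 in spleen. Igj in PBS lung had authors' means of 150, 213 and 268, and in PBS spleen 2890, 2660 and 3680. The knockout spleen was thus highest with PBS too, with a fold of 0.29 at adjusted p 0.999 by the authors' deposited table. Ighg in PBS spleen had 751, 967 and 1670, with a knockout fold of 0.93 at adjusted p 0.999 by the authors' deposited table. PBS groups have 2 libraries each. With the wider limit of an adjusted p up to 0.1, which the authors mark, the same numbers of members were called in all 12 comparisons, while the share of all genes called with LPS was 0.773% for knockout against wild type, 0.0954% for mutant against wild type and 0.512% for knockout against mutant in lung, and 0.133% for knockout against wild type and 0.371% for knockout against mutant in spleen. With PBS it was 0.0474% in lung and 0.384% in spleen for knockout against wild type, and as above in the others.

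LPS was compared with PBS within each genotype as the log2 ratio of the authors' means with a pseudocount of 1, where either mean reached 10. This comparison has no test. The LPS means summed to 1.28 to 1.42 times the PBS means, so scaling them to equal sums lowers every ratio, and the median over all genes by 0.35 to 0.50. As deposited that median was between -0.03 and 0.02.

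In spleen the set was lower after LPS in all genotypes, least in wild type. Of 40 entries in wild type, 10 were at least 2-fold lower and 2 at least 2-fold higher (14.8% and 13.5% of all genes). The mutant had 16 lower and 3 higher of 39 (16.7% and 15.3% of all genes), and the knockout 16 lower and 4 higher of 40 (18.7% and 16.6%). In either direction the shares were 30%, 48.7% and 50% of the entries, against 28.4%, 32% and 35.3% of all genes. With equal sums these counts were 13 lower and 2 higher, 20 and 2, and 22 and 2. Over all genes that scaling gave 24.8% lower and 7.56% higher in wild type, 27.9% and 9.07% in mutant, and 30.4% and 10.2% in knockout spleen. The median log2 ratio was -0.31 in wild type, -0.66 in mutant and -0.75 in knockout spleen. For 25 of 40 entries wild type had the highest of the 3 ratios.

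Lower by 2-fold or more in the spleens of all 3 genotypes were 7 entries. Ms4a1 went from a PBS mean of 1290 to 440 with LPS in wild type, from 1090 to 307 in the mutant and from 1140 to 496 in the knockout. Cr2 went from 1310 to 466, from 1320 to 175 and from 1500 to 229. Fcer2a (CD23), the low affinity IgE receptor of follicular B cells, went from 728 to 206, from 929 to 139 and from 898 to 242. Thus the 2 surface receptors that mark marginal zone and follicular cells were both lower after LPS whatever the genotype. Cd180, a Toll-like receptor homologue through which B cells respond to LPS, went from 360 to 83.2, from 395 to 79.2 and from 359 to 63.4. Bank1 went from 922 to 428, from 1140 to 287 and from 1220 to 315. Fcrla, an Fc receptor-like protein kept inside B cells, had log2 ratios of -1.41, -2.41 and -1.92, and Mzb1 of -1.34, -1.38 and -1.26. With equal sums 10 entries were lower in all 3 genotypes, these 7 among them.

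Higher by 2-fold or more in the spleens of all 3 genotypes were Prdm1 and Zbtb32, also with equal sums. Prdm1 went from PBS means of 47.3, 55.8 and 66.8 for wild type, mutant and knockout to LPS means of 150, 189 and 355. Zbtb32 went from 17.8, 18.6 and 21.0 to 138, 137 and 211, log2 ratios of 2.89, 2.82 and 3.27. Both are also known in activated T and NK cells. These were the members with the highest LPS ratios in spleen in each genotype.

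Several spleen members were lower after LPS mainly in the lines. Cd79b went from 1920 to 1200 in wild type, from 2370 to 378 in the mutant and from 2450 to 232 in the knockout, log2 ratios of -0.68, -2.65 and -3.39. Cd79a had ratios of -0.44, -1.86 and -2.34, Blk, a Src family kinase of B cells, -0.42, -1.91 and -2.00, and Spib -0.36, -1.87 and -1.93. Cd37 had -0.06, -1.31 and -2.25, Vpreb3 -0.41, -2.02 and -2.74, and Siglecg, an inhibitory lectin of B1 cells, -0.71, -2.79 and -2.17. Whether these ratios differ between genotypes was not tested, and the LPS groups differ from their PBS groups in Xist or Ddx3y. Cd22 stayed within 2-fold of its PBS level, from 1000 to 1480 in wild type, from 1460 to 1040 in the mutant and from 1430 to 1060 in the knockout. Pax5 went from 369 to 713 in wild type but from 627 to 629 and from 612 to 534 in the lines. Btk, the X-linked kinase downstream of Syk, had ratios of -0.33, -1.02 and -1.38. Tnfrsf13c went from 517 to 297, from 468 to 272 and from 576 to 321, at similar ratios in the 3 genotypes, while the plasma cell receptor Tnfrsf17 was low, from 12.4 to 1.79, from 7.11 to 4.64 and from 14.3 to 3.16. Tnfrsf13b went from 33.2 to 45.4, from 42.3 to 52.7 and from 32.9 to 63.2.

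**Figure D3:**
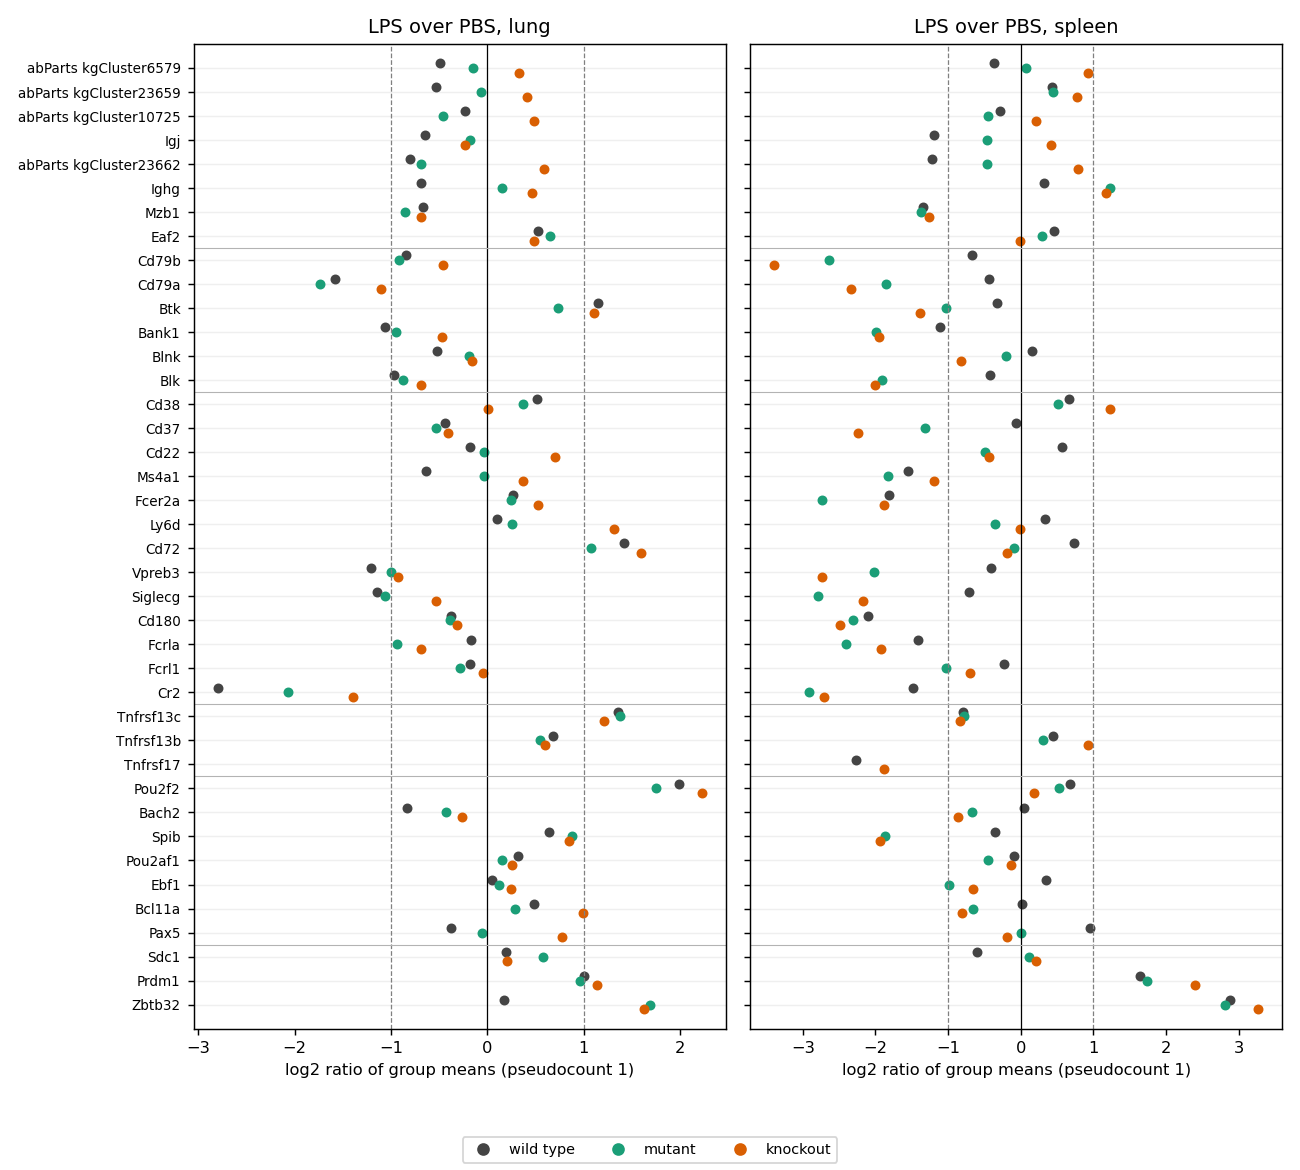
Log2 LPS over PBS ratio of the authors' means (pseudocount 1) for each member in lung (left) and spleen (right), by genotype, with dashed lines at 2-fold; entries whose means are under 10 in a genotype are not drawn. In spleen the antigen receptor block lies mostly left of 0 and further left in the mutant and knockout (Cd79b -0.68, -2.65 and -3.39), and Prdm1 and Zbtb32 lie on the right.

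The medians of the LPS ratios of the antibody entries were ordered by genotype, but not every entry was. abParts kgCluster10725 had log2 ratios of -0.24 (wild type), -0.46 (mutant) and 0.48 (knockout) in lung and -0.29, -0.46 and 0.21 in spleen. Igj in lung had -0.64, -0.18 and -0.24, and Ighg in spleen 0.32, 1.23 and 1.17. In lung the 6 entries had a median log2 ratio of -0.59 (wild type), -0.17 (mutant) and 0.44 (knockout), and in spleen of -0.33, -0.19 and 0.78. All 6 were below 0 in wild type lung and 5 of 6 above 0 in knockout lung. In spleen all 6 were above 0 in the knockout and 4 of 6 below 0 in wild type. Igj in wild type spleen went from 2890 to 1260, while in knockout spleen it went from 3680 to 4920. With equal sums 3 of 6 were above 0 in knockout lung and 4 of 6 in knockout spleen. The medians were then -0.95, -0.67 and 0.03 in lung and -0.72, -0.63 and 0.32 in spleen, in the same order of genotypes.

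In lung the set was divided. Of 39 entries, 5 were at least 2-fold higher and 5 lower in wild type (13.9% and 14.3% of all genes), 4 and 4 in the mutant (15.5% and 16%), and 7 and 2 in the knockout (16.9% and 17.7%). In either direction the shares were 25.6%, 20.5% and 23.1% of the entries, below the 28.3%, 31.5% and 34.7% of all genes. With equal sums the counts were 3 higher and 10 lower in wild type, 2 and 11 in the mutant, and 3 and 6 in the knockout. Over all genes that scaling gave 9.61% higher and 23.7% lower in wild type, 9.79% and 29.5% in mutant, and 11.8% and 28.2% in knockout lung. Cr2 went from 52.5 to 6.68 in wild type, from 56.5 to 12.7 in the mutant and from 62.5 to 23.2 in the knockout. Cd79a went from 234 to 77.3, from 405 to 121 and from 352 to 163. These were the 2 entries lower by 2-fold in all 3 genotypes, and with equal sums there were 4, Blk and Vpreb3 being added.

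Higher by 2-fold or more in all 3 genotypes in lung were Pou2f2, Cd72 and Tnfrsf13c, among 16 entries above 0 in all 3. Pou2f2 went from 65.5 to 264, from 72.7 to 247 and from 70.3 to 333, and stayed above 2-fold with equal sums. Cd72, an inhibitory coreceptor, went from 47.9 to 130, from 66.7 to 142 and from 56.4 to 172, and Tnfrsf13c from 32.4 to 84.4, from 36.5 to 96.8 and from 45.2 to 106. With equal sums these 2 no longer reached 2-fold in every genotype: Cd72 had 0.58 in the mutant and Tnfrsf13c 0.80 in the knockout. Pou2f2 and Prdm1 are also known in myeloid cells, and Prdm1 in lung went from 132 to 265, from 171 to 334 and from 156 to 345. Bach2 in lung went from 193 to 108, from 180 to 133 and from 192 to 160. Tnfrsf13b, low in lung, went from 7.30 to 12.3, from 7.07 to 10.8 and from 8.91 to 14.0, and Cd38 from 747 to 1070, from 842 to 1090 and from 897 to 902. Sdc1 went from 1640 to 1880, from 1380 to 2060 and from 1550 to 1780, within 2-fold in each.

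Other genes of the same pathways were described from lists that share no entry with the set. Of 20 further genes of B cell receptor signalling, none was called between genotypes with LPS in either tissue. In spleen after LPS, 1 was at least 2-fold lower and 1 higher in wild type (14.8% and 13.5% of all genes). The counts were 5 and 1 in the mutant (16.7% and 15.3%), and 7 and 2 in the knockout (18.7% and 16.6%). In lung, 3 were lower and 9 higher in wild type (14.3% and 13.9% of all genes). The mutant lung had 2 lower and 9 higher (16% and 15.5%), and the knockout lung 2 and 9 (17.7% and 16.9%). In 14 further B cell genes the spleen median LPS ratio was -0.54, -1.26 and -1.46 over the 3 genotypes, an order like that of the receptor genes.

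Secretory genes lay above wild type in knockout spleen, none called. Of 14 further plasma cell and secretory genes, 12 lay above 0 with a median log2 fold of 0.58. Xbp1, the factor that expands the secretory apparatus, had LPS means of 601, 671 and 1170 and a fold of 0.92 (adjusted p 0.272) by the authors' deposited table. Derl3, which retrotranslocates misfolded proteins, had 45.1, 48.2 and 138, with a fold of 1.51 at adjusted p 0.0941 by the authors' deposited table. In lung the same list had a median of -0.05 and 6 of 14 above 0, and Xbp1 was 4590, 4050 and 4430. In wild type LPS lung, Xbp1 and Hsp90b1 (7570) stood far above the member Mzb1 (13.9), while Derl3 was low (13.5). Levels in whole lung are not those of plasma cells alone, so the list cannot show whether such a shift took place in plasma cells there.

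**Figure D4:**
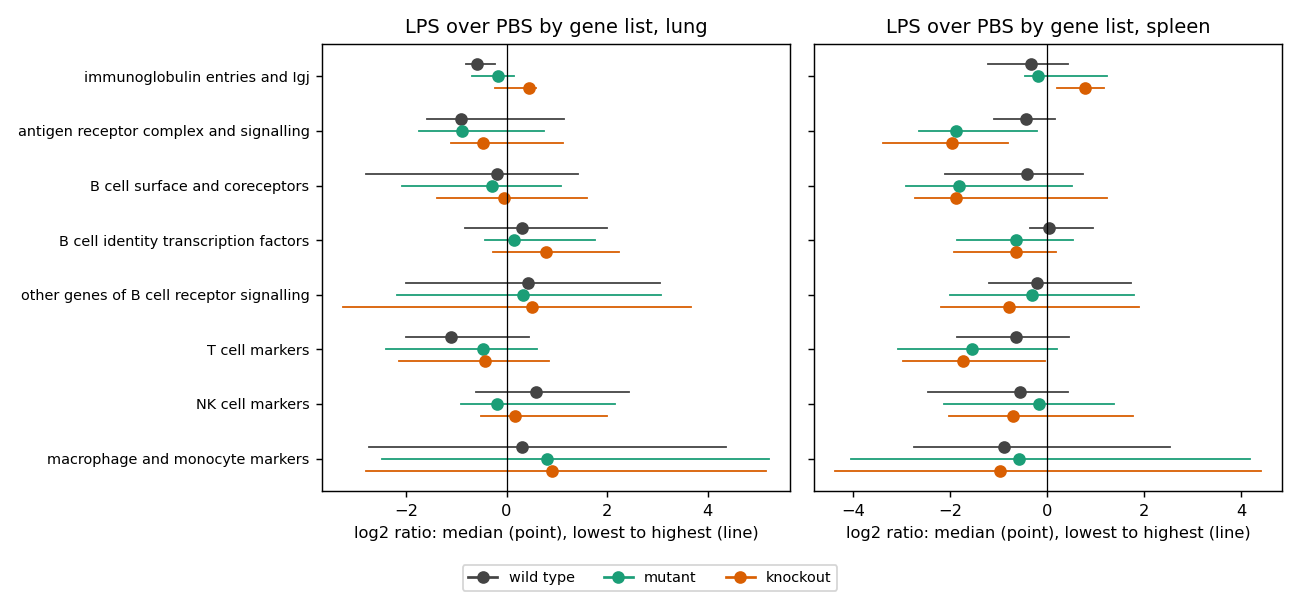
Median (point) and lowest to highest value (line) of the log2 LPS over PBS ratio for gene lists in lung (left) and spleen (right), by genotype. In spleen the antigen receptor list has medians of -0.43, -1.88 and -1.98 for wild type, mutant and knockout, the T cell list -0.65, -1.56 and -1.75, and the antibody entries -0.33, -0.19 and 0.78.

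The T cell list followed the antigen receptor list in spleen. Its median LPS ratio was -0.65 (wild type), -1.56 (mutant) and -1.75 (knockout), against -0.43, -1.88 and -1.98 for the 6 antigen receptor genes. Lower values in the lines were thus seen for T cell genes too. In lung the T cell medians were -1.11, -0.46 and -0.43, and those of the receptor genes -0.90, -0.89 and -0.47.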

How the data were processed

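The submitters' processing notes list DESeq2, STAR 2.5.3a, bedtools, Bowtie2 and SAMtools, and mm10 as genome, but no order or settings. Per the labels' protocols, mRNA was isolated with a kit. One deposited table per tissue gives the authors' group means, named baseMean per the file headers, a normalized signal (in DESeq2, the mean of counts divided by size factors), with log2 fold changes and adjusted p-values, which are read as a score column of the authors' deposited table because some of its lines are broken. Per the file headers, each table holds 6 genotype comparisons. The deposited log2 folds lie somewhat nearer 0 than ratios of the means. Neither per-library values nor unadjusted p-values were used here. Whether counting used strand is not given in the sources used here, and Pax5, Cd22, Cd72, Cd37, Cd180, Bach2, Mzb1, Bcl11a and Pou2f2 overlap exons of other annotated genes.

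Broken lines (6 in lung, 5 in spleen) were left out and 1026 split symbols in spleen rejoined. A repeated symbol was taken at its highest mean. Ratios of LPS to PBS means used a pseudocount of 1 and a mean of at least 10, without a test. Values in all groups of a tissue were to be given for members called in it, those past 2-fold in all 3 genotypes, and the 2 members of each role with the highest mean; members and list genes named beyond that rule were named after their values were seen. Members and lists were chosen with earlier results of these data known. Of the members, 35 matched GENCODE M21 and 30 had a RefSeq window. Python 3.11.15, pandas 2.3.3 and numpy 2.4.6 were used, and the scripts were tested on simulated data. Group means carry the counting error of 2 or 3 libraries, and no interval can be computed from them. A few genes of the lists are not reported here.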

Additional observations from a re-analysis of the deposited data

How the results depend on the processing

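The numbers of members called in the 12 genotype comparisons were the same with an adjusted p up to 0.1. Leaving out the abParts entries lowered the share of members called in mutant lung with LPS to 2.86% (1 of 35) and in knockout lung to 14.3% (5 of 35), and in spleen to 0 of 36 for knockout against wild type and 0 of 35 for knockout against mutant. Among members known mainly in B lineage cells the shares were 34.8% (8 of 23) in knockout lung, 8.33% (2 of 24) in knockout against wild type spleen and 4.35% (1 of 23) in knockout against mutant spleen. For LPS against PBS a 1.5-fold limit was passed by 51.3% of entries in wild type, 46.2% in mutant and 48.7% in knockout lung and 50% in wild type spleen, and a 3-fold limit by 7.69%, 10.3%, 7.69% and 12.5%. Over all genes these shares were 48.7%, 52%, 55.5% and 50.7% at 1.5-fold and 14.4%, 16.2%, 18.8% and 12.8% at 3-fold. In mutant and knockout spleen the shares of entries at both limits stayed within a factor of 1.5 of those at 2-fold. Over all genes the shares there were 54% and 56.4% at 1.5-fold and 15.2% and 18.3% at 3-fold. With equal sums, an alternative chosen after seeing the data, 33.3% of entries in mutant lung were past 2-fold, and the median LPS ratio in knockout lung reversed from 0.33 to -0.086. Among B lineage members 13% (3 of 23) in knockout lung were past 2-fold. Of the other alternatives for medians, 40 for LPS ratios and 50 for genotype folds moved them by less than 0.1 and 13 and 10 by more, none to the other sign. The alternative without antibody entries was also chosen after seeing the data. No paired analysis was possible because the deposited columns are group means, and leaving out each replicate could not be run for the same reason. So whether 1 library carries a group mean was not tested, nor were LPS ratios between genotypes. Members with means near 10, such as Eaf2 and Tnfrsf13b in lung, rest on few reads.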

Other observations

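Genes of germinal centre reaction and class switching gave further values. Fas, the death receptor raised on activated B cells, had authors' means of 250, 277 and 412 for wild type, mutant and knockout LPS spleen, against 81.1, 55.3 and 68.5 with PBS, and Cd86, a costimulatory ligand, 779, 879 and 1170 against 377, 276 and 311. Of 8 to 10 genes of this list with a mean of at least 10, 5 in wild type, 6 in mutant and 4 in knockout spleen were at least 2-fold higher after LPS. Over all genes these shares were 13.5%, 15.3% and 16.6%. Gcsam, a signalling adaptor of germinal centre B cells, was lower in all 3 genotypes, with log2 ratios of -2.59, -2.16 and -3.15. None of these genes was called between genotypes with LPS in either tissue.

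The B cell follicle receptor Cxcr5 was higher after LPS in both tissues, from 474 to 1130 in wild type spleen and from 49.3 to 109 in wild type lung, with log2 ratios above 0 in both lines too. The stromal ligand Cxcl13 went from 1170 to 736 in wild type spleen, from 599 to 675 in the mutant and from 552 to 862 in the knockout. In lung it went from 85.8 to 497, from 30.7 to 596 and from 109 to 1030.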
